A study of Mus musculus with 17 samples.

Results

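Interferon-stimulated genes were followed in RNA-seq of macrophages that reside in liver sinusoids, the Kupffer cells (KCs), sorted from mice. The list held 41 symbols, and all 41 were found among the 25124 genes of each of the 3 deposited tables. They fell into 11 type I targets (*Ifit1*, *Ifit2*, *Ifit3*, *Isg15*, *Oas1a*, *Oas2*, *Oas3*, *Oasl1*, *Oasl2*, *Mx1*, *Mx2*), 7 interferon-gamma-induced GTPases (*Gbp2*, *Gbp3*, *Gbp5*, *Gbp7*, *Irgm1*, *Igtp*, *Iigp1*), 6 regulators (*Irf1*, *Irf7*, *Irf9*, *Stat2*, *Usp18*, *Socs1*), 4 nucleic acid sensors (*Ifih1*, *Dhx58*, *Zbp1*, *Ifi204*) and 13 other effectors. There were 17 samples. Tim4+CD206+ KCs came from 3 untreated, tumour-free livers and from 3 livers at 2 weeks after KPC pancreatic tumour cells were injected into the portal vein, and Tim4+CD206hi KCs came from 3 and 3 livers of the same kinds. KCs of tumour-free mice came from 3 *Id3*f/f animals, which carry the floxed allele without Cre, and from 2 littermates of the *Clec4f*CreId3f/f genotype, in which Cre is driven by the gene of the KC lectin CLEC4F and deletes *Id3* after KCs have formed. The ages of the mice were not given in the sources used here, and no source says whether the cells of both CD206 subsets came from the same livers.

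Type I interferons (the IFN-alpha family and IFN-beta) bind the receptor IFNAR1–IFNAR2 and activate the complex ISGF3, which holds STAT2 and IRF9. ISGF3 binds an interferon-stimulated response element (ISRE) at genes whose products block viruses, such as the IFIT, OAS and MX proteins. Interferon-gamma, made mostly by T and NK cells, binds IFNGR1–IFNGR2 and acts through a gamma-activated site (GAS) at its target genes, *Irf1* among them. Large GTPases of both families follow, the guanylate-binding proteins (GBPs) and the immunity-related GTPases (IRGs), which act on membranes around intracellular pathogens. The division is one of degree, as many of the genes respond to both cytokines. KCs meet gut-derived microbial products in portal blood and express interferon-stimulated genes without infection.

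Promoter sequences are shown because they hold the elements that define the type I and gamma pathways, on which both classes of members can be compared. Mouse promoter windows of RefSeq (GRCm38.p6, 250 bases before the transcription start) matched 29 of the 41 members, and no window was matched for *Oas2*, *Mx1*, *Mx2*, *Iigp1*, *Usp18*, *Dhx58*, *Zbp1*, *Ifi204*, *Rtp4*, *Parp9*, *Parp14* and *Ifi27l2a*. An ISRE core, GAAANNGAAA on either strand, lay before the start of 16 of the 29 members (55.2%) and of 936 of 27025 mouse genes (3.46%). It lay in 5 of 8 type I targets with a window and in 6 of 6 GTPases. A GAS core, TTCNNNGAA, which reads the same on both strands in its fixed letters, lay before the start of 8 of 29 members (27.6%) and of 2197 of 27025 genes (8.13%), in 2 of 8 type I targets and 3 of 6 GTPases. The cores can share bases, as they do in *Bst2*. These are matches of letters and not measured binding.

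The stretches below run 5′ to 3′ on the strand of the gene, with 20 bases on either side where the window allows. Capitals mark the ISRE cores, or the GAS core in the stretch of *Irf1*, and the GAS core that *Igtp* also has stays in lower case. The first group are type I targets, the second GTPases of the IRG family (*Igtp*, *Irgm1*) and of the GBP family (*Gbp2*, *Gbp7*), all with the ISRE core, and the last is the GAS core of *Irf1*.
Ifit3, chr19:34583353-34583436, plus strand: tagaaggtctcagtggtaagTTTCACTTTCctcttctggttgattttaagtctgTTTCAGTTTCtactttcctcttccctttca
Isg15, chr4:156200855-156200916, minus strand: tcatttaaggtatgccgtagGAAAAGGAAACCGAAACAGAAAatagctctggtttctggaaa
Oas1a, chr5:120907526-120907565, minus strand: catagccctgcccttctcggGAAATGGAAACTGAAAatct
Oas3, chr5:120777705-120777754, minus strand: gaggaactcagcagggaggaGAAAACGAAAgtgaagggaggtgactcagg
Igtp, chr11:58199502-58199551, plus strand: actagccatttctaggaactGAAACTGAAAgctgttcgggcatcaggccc
Irgm1, chr11:48871421-48871470, minus strand: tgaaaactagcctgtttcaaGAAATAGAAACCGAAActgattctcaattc
Gbp2, chr3:142620584-142620633, plus strand: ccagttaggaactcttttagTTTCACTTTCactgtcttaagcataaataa
Gbp7, chr3:142530263-142530312, plus strand: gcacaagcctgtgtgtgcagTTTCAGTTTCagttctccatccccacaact
Irf1, GAS core, chr11:53769904-53769952, plus strand: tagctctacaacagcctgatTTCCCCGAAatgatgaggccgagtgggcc

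In *Ifit3* and *Isg15* several cores stood in a row or near each other, and in *Gbp2* and *Gbp7* a single one did. After *Id3* deletion 9 of the 16 members with an ISRE core fell, as did 8 of the 13 with a window and no core, while 3.37% of all genes fell. With tumour 3 of 16 and 2 of 13 fell in Tim4+CD206+ KCs, where 0.998% of all genes did, and 1 of 16 and 3 of 13 in Tim4+CD206hi KCs, where 2.03% did.

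Values were deposited on a log2 scale and are regularized, so that differences of weakly expressed genes are drawn towards 0. They are not scaled by transcript length, and levels are therefore not compared between genes. Each of the 3 tables was normalized separately, so no test was made between them. Differences below are in log2 units, tumour minus tumour-free or *Clec4f*CreId3f/f minus *Id3*f/f, with the standard error (SE) and the Benjamini-Hochberg adjusted p of limma over all genes tested. A member rose or fell where the adjusted p was under 0.05. No source says that the replicates came from separate cultures or days, and in sorted bulk samples fewer cells of a type and less RNA per cell cannot be told apart.

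*Id3* itself fell in *Clec4f*CreId3f/f KCs by 2.80 (SE 0.11, adjusted p = 1.40e-06). Tumour-free replicate 2 stood apart in both subsets, with low values of many members, and the counts and class medians are given with and without it. With tumour, 11 of 11 epithelial marker genes tested rose in both subsets and 8 of 9 and 7 of 9 hepatocyte markers fell, in Tim4+CD206+ and Tim4+CD206hi KCs. Markers of monocytes (3 of 7 in each subset) and neutrophils (5 of 8 in each) rose, and B cell markers fell (3 of 4 and 2 of 5). None of the 12 T or NK cell markers passed the test of limma (4 and 7 had an unadjusted p under 0.05), but 12 and 11 had negative differences, and their summed level was 12.36–13.06 in tumour-free and 12.05–12.26 in tumour Tim4+CD206+ KCs and 12.48–13.10 and 11.88–12.10 in Tim4+CD206hi KCs. The plasmacytoid dendritic cell list summed to 10.72–11.19 and 10.22–10.39 in Tim4+CD206+ KCs, with 1 of 6 lower. There 2 differences were negative and 4 positive. In Tim4+CD206hi KCs the list summed to 9.90–10.88 and 9.70–10.08, with 4 negative and 2 positive differences. The summed log2 level of the epithelial list went from 10.81–11.75 to 15.20–15.41 in Tim4+CD206+ KCs and from 10.79–11.29 to 15.69–15.78 in Tim4+CD206hi KCs. The part of these cells in the results was not tested. None of the 4 sex-linked genes tested passed the test of limma with tumour in either subset. In Tim4+CD206+ KCs all 4 differences were positive, 3 at an unadjusted p under 0.05. The summed level of that list was 9.15–9.70 in tumour-free and 10.12–10.61 in tumour samples there. In Tim4+CD206hi KCs it was 12.70–13.53 and 12.89–12.95, with 3 of 4 differences negative. The part of sex in the tumour results was not tested. KC markers had a summed level of 21.25–21.81 in tumour-free and 20.93–21.03 in tumour Tim4+CD206+ KCs, where 3 of 11 fell, and of 20.30–20.76 and 20.10–20.26 in Tim4+CD206hi KCs, where none passed the test of limma and 5 had an unadjusted p under 0.05.

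**Figure D1:**
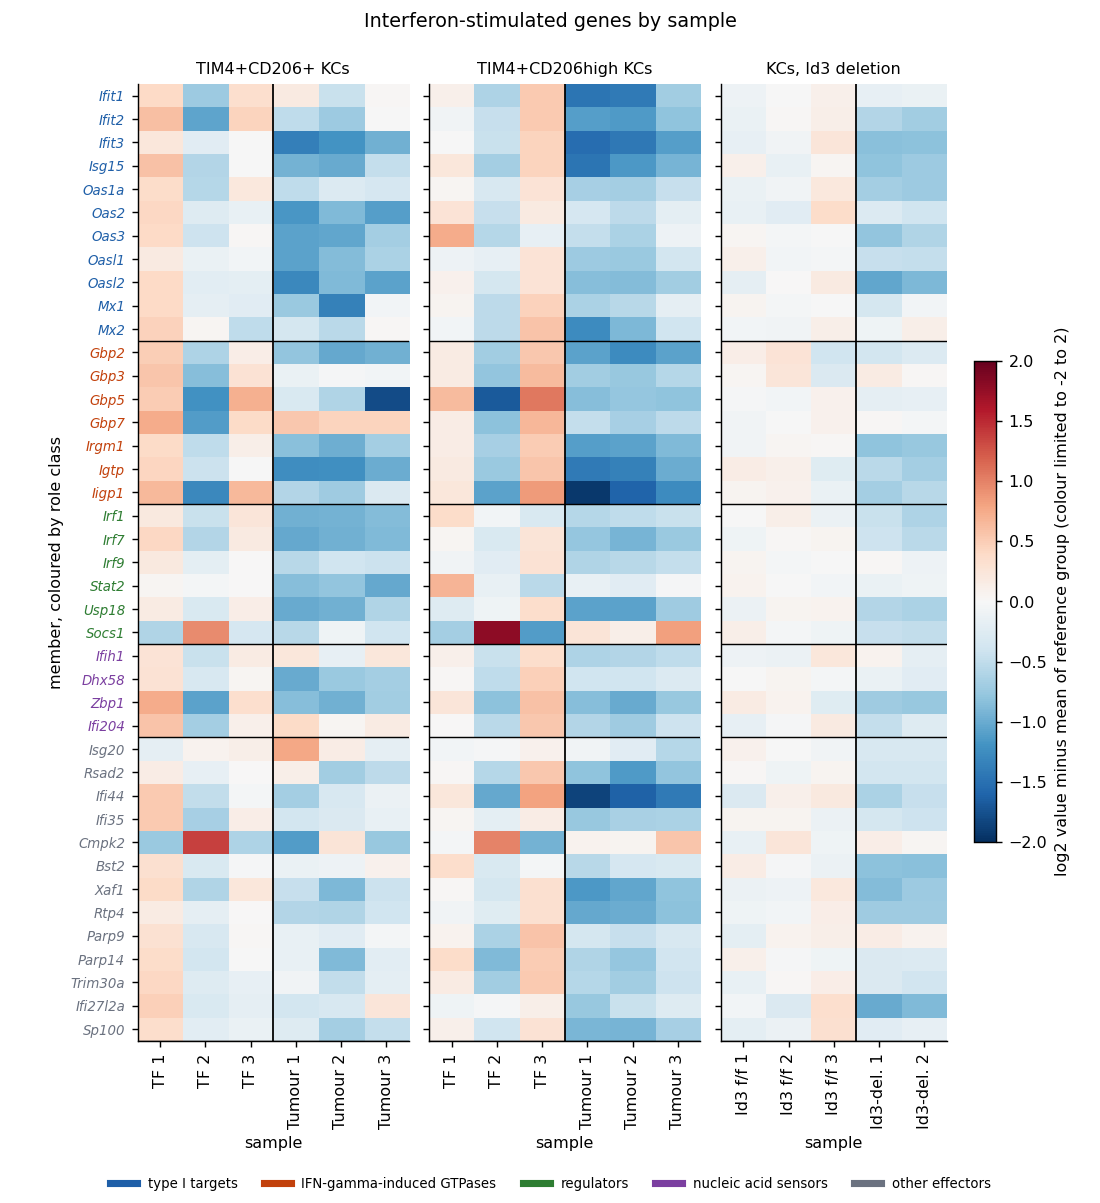
Value of each of the 41 members in each of the 17 samples, as the difference in log2 units from the mean of the reference group of its table (tumour-free or Id3f/f), with members in rows coloured by class and samples in columns (TF, tumour-free; Id3-del., Clec4fCreId3f/f; CD206high, CD206hi). Most members were lower in the tumour and Clec4fCreId3f/f samples, and tumour-free replicate 2 was low for many members in both CD206 subsets.

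With tumour, 6 of the 41 members fell in Tim4+CD206+ KCs and none rose. The 6 were *Ifit3*, *Oas2*, *Oasl1* and *Oasl2* among the type I targets, the IRG GTPase *Igtp* and the signal transducer *Stat2*. Of all 13233 genes tested, 0.998% fell and 2.55% rose. The difference was below 0 for 37 of 41 members, against 47.9% of all genes, and the median was -0.53 over the members and 0.02 over all genes. All 3 tumour samples lay below all 3 tumour-free samples for 16 members, which was so for 10.5% of all genes. An unadjusted p under 0.05 with a lower value was found for 16 members and 7.84% of all genes. Members were read from the same samples and are not independent of each other.

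*Ifit3*, an RNA-binding antiviral protein of the IFIT complex, had values of 12.80, 12.34 and 12.56 in tumour-free samples and of 11.21, 11.37 and 11.61 with tumour. It fell by 1.17 (SE 0.18, adjusted p = 0.0123), which is 2.25-fold on this scale, and the groups did not overlap. *Oasl2*, a 2′-5′-oligoadenylate synthetase-like protein, had 12.999, 12.39 and 12.41 against 11.32, 11.72 and 11.53, a fall of 1.08 (SE 0.21, adjusted p = 0.0317). Its lowest tumour-free sample stood above its highest tumour sample.

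*Oas2*, which makes the 2′-5′-oligoadenylates that activate RNase L, had 11.31, 10.64 and 10.76 in tumour-free and 9.73, 10.01 and 9.81 in tumour samples and fell by 1.05 (SE 0.22, adjusted p = 0.0399). *Oasl1*, known to restrain translation of *Irf7*, had 12.60, 12.29 and 12.38 against 11.35, 11.56 and 11.79 and fell by 0.86 (SE 0.18, adjusted p = 0.0379). Neither gene overlapped between the groups. *Oas3* did not overlap either, with 11.66, 10.85 and 11.28 against 10.19, 10.22 and 10.58, but its difference of -0.93 did not pass the test (SE 0.24, adjusted p = 0.0803).

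The remaining type I targets overlapped between the groups. *Isg15*, a ubiquitin-like modifier, had 11.70, 10.54 and 11.11 against 10.18, 10.10 and 10.63, a difference of -0.81 (SE 0.30, adjusted p = 0.212). *Ifit1*, which binds RNA lacking cap methylation, had 8.00, 6.89 and 7.94 against 7.79, 7.16 and 7.64, a difference of -0.08 (adjusted p = 0.948). In both genes replicate 2 was the lowest tumour-free sample. *Ifit2* (-0.41), *Oas1a* (-0.37), *Mx1* (-0.71) and *Mx2* (-0.29) had differences that did not pass the test. Over the 11 type I targets 4 fell, all 11 differences were negative, and the median was -0.81.

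*Igtp*, an IRG that guards self membranes, was the 1 of 7 GTPases that fell. Its values were 12.54, 11.67 and 12.09 in tumour-free samples and 10.86, 10.87 and 11.11 with tumour, a fall of 1.15 (SE 0.23, adjusted p = 0.0348), or 2.22-fold. *Irgm1*, of the same regulatory IRG group, had 12.58, 11.68 and 12.32 against 11.36, 11.21 and 11.51, a difference of -0.83 (SE 0.24, adjusted p = 0.112). *Gbp2* had 12.79, 11.68 and 12.43 against 11.51, 11.28 and 11.34, a difference of -0.93 (SE 0.27, adjusted p = 0.120). For both genes the groups were apart, by a margin that tumour-free replicate 2 made narrow.

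*Iigp1* had 10.38, 8.43 and 10.37 against 9.13, 9.02 and 9.44, a difference of -0.53 (adjusted p = 0.663), and its tumour-free replicate 2 lay below every tumour sample. Without that library the difference of *Iigp1* was -1.18 (adjusted p = 0.0125). The same order held for *Gbp7*, with 10.59, 8.72 and 10.23 against 10.38, 10.29 and 10.29, a difference of 0.48 (SE 0.43, adjusted p = 0.654). *Gbp3* (-0.07) and *Gbp5* (-0.90, SE 0.56) did not pass the test. The median over the 7 GTPases was -0.83.

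Of the regulators, *Stat2*, a subunit of ISGF3, had 12.28, 12.21 and 12.25 in tumour-free samples and 11.39, 11.45 and 11.22 with tumour and fell by 0.89 (SE 0.15, adjusted p = 0.0157). It was tight in both groups, tumour-free replicate 2 included. *Irf1*, *Irf7*, *Irf9* and *Usp18* did not overlap between the groups, with differences of -0.92 (SE 0.20, adjusted p = 0.0502), -0.95 (SE 0.25, adjusted p = 0.0863), -0.46 (adjusted p = 0.182) and -0.86 (adjusted p = 0.0602). *Irf7*, the factor that amplifies interferon transcription, ranged from 15.38 to 16.37 in tumour-free and from 14.95 to 15.09 in tumour samples. *Socs1*, a feedback inhibitor of JAK kinases, was highest in tumour-free replicate 2, at 5.82, with the other 5 samples between 4.28 and 4.80 (difference -0.35, adjusted p = 0.723).

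None of the 4 sensors and none of the 13 other effectors passed the test of limma in Tim4+CD206+ KCs, and 1 of each had an unadjusted p under 0.05. The sensor *Dhx58* (LGP2) had 12.90, 12.30 and 12.66 against 11.62, 11.87 and 11.94, a difference of -0.81 (SE 0.20, adjusted p = 0.0658). *Zbp1*, a sensor of Z-form nucleic acid, had a difference of -0.84 with overlapping groups (SE 0.41, adjusted p = 0.349). Among the effectors the differences lay from -0.60 (*Xaf1*, SE 0.28, adjusted p = 0.322) to 0.25 (*Isg20*, adjusted p = 0.742). The kinase *Cmpk2*, with a difference of -0.54 (SE 0.58, adjusted p = 0.723), had 10.34 in tumour-free replicate 2 and 8.24 and 8.36 in the other tumour-free samples.

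The count in Tim4+CD206+ KCs moved with single libraries. Without tumour-free replicate 2 it was 21 of 41 (7 type I targets and 4 GTPases, with the 6 above among the 21), at 4.50% of all genes lower. Without any 1 of the other 5 samples it was 0 or 1, at 0.212% to 0.310% of all genes lower. With 0 called, 15 or 16 members had an unadjusted p under 0.05. A block on the replicate number, a pairing that no source states, was fitted as an alternative. With it 13 members fell, the same 6 and *Oas3*, *Gbp2*, *Irgm1*, *Irf1*, *Irf7*, *Usp18* and *Dhx58*, at 3.09% of all genes lower.

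**Figure D2:**
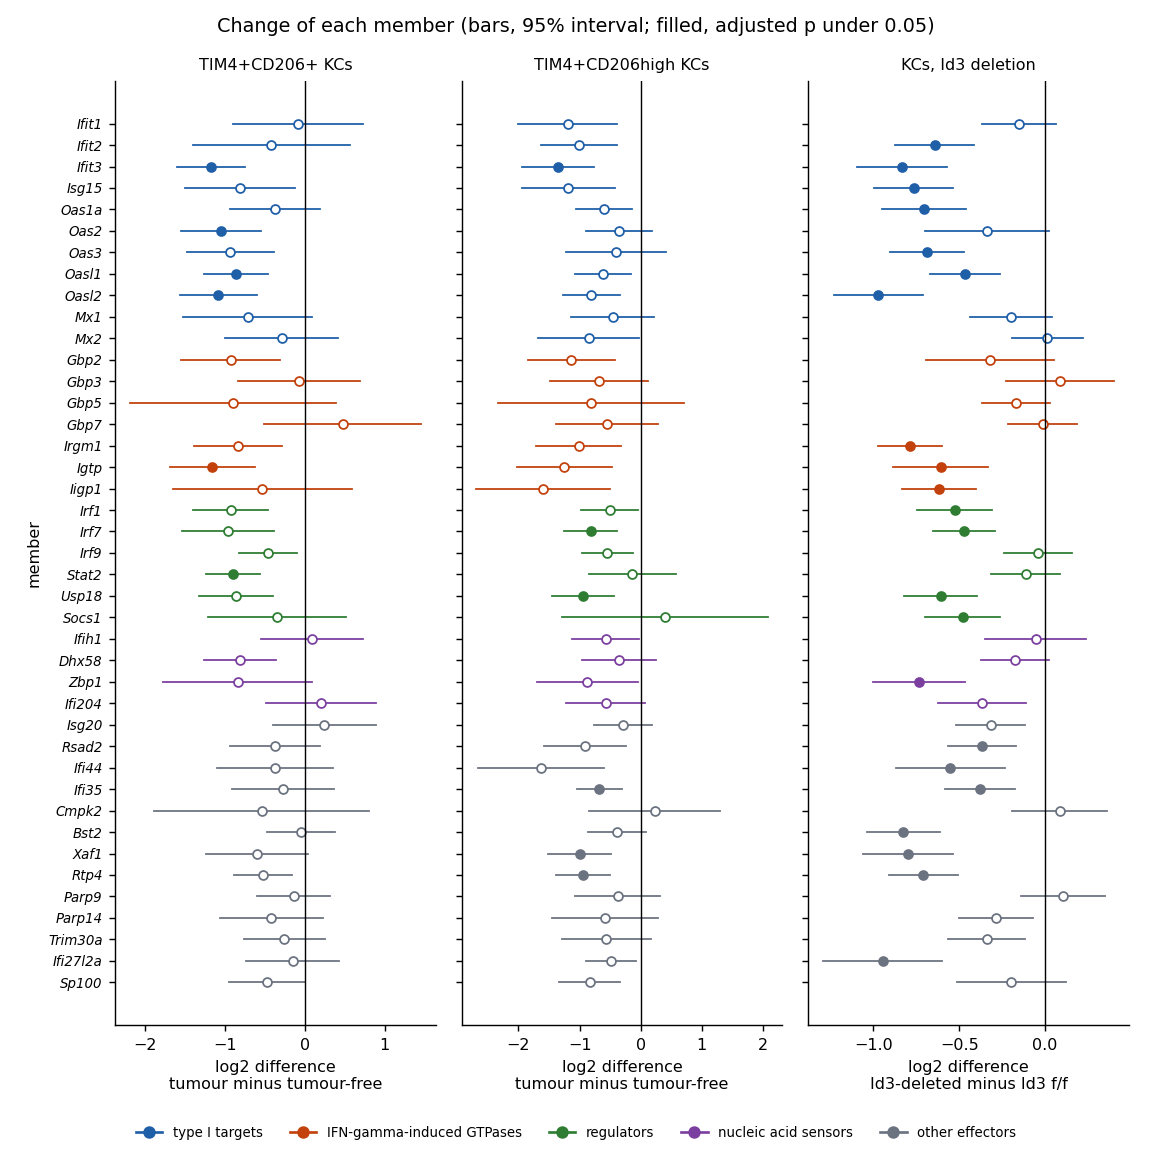
Log2 difference of each of the 41 members (dots; lines, 95% interval) with tumour in the Tim4+CD206+ (left) and Tim4+CD206hi (middle) KCs and with Id3 deletion (right), filled where the adjusted p of limma was under 0.05. Filled dots number 6, 6 and 22, all below 0, and the intervals in the right panel are the narrowest, a table in which values also spread less within groups.

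In Tim4+CD206hi KCs 6 members likewise fell with tumour and none rose. They were *Ifit3* of the type I targets, *Irf7* and *Usp18* of the regulators, and the effectors *Ifi35*, *Xaf1* and *Rtp4*. Of 14561 genes tested, 2.03% fell and 5.21% rose. Negative differences were found for 39 of 41 members and 47.7% of all genes, and the median was -0.67 over members and 0.03 over all genes. In 24 members the tumour samples lay below the tumour-free ones without overlap, against 15.2% of all genes, and 25 had a lower value at an unadjusted p under 0.05, against 8.57%. The endothelial markers had a summed level of 17.37–18.03 in tumour-free and 16.76–17.07 in tumour samples, and 2 of 9 fell. Their part in the result was not tested.

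*Ifit3* had 13.14, 12.71 and 13.60 in tumour-free and 11.62, 11.72 and 12.04 in tumour samples, and fell by 1.35 (SE 0.25, adjusted p = 0.0198), or 2.56-fold. *Irf7* had 14.89, 14.55 and 15.10 against 14.06, 13.91 and 14.11 and fell by 0.82 (SE 0.19, adjusted p = 0.0438). *Usp18*, the protease that removes ISG15 and blocks signalling at IFNAR2, had 11.01, 11.18 and 11.61 against 10.19, 10.20 and 10.56 and fell by 0.95 (SE 0.22, adjusted p = 0.0432). In all 3 genes the highest tumour sample stayed below the lowest tumour-free one.

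*Rtp4*, a chaperone that regulates interferon responses, had 13.37, 13.20 and 13.76 against 12.43, 12.45 and 12.63 and fell by 0.95 (SE 0.19, adjusted p = 0.0252). *Xaf1*, a pro-apoptotic partner of XIAP, had 11.29, 10.91 and 11.58 against 10.11, 10.22 and 10.45 and fell by 1.00 (SE 0.22, adjusted p = 0.0359). *Ifi35* had 12.36, 12.14 and 12.48 against 11.57, 11.68 and 11.69 and fell by 0.67 (SE 0.16, adjusted p = 0.0469). These 3 effectors did not overlap between the groups, and tumour-free replicate 2 was the lowest of its group in each.

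Larger differences with larger errors were found among members that did not pass the test. *Ifi44*, a microtubule-associated antiviral protein, had 11.51, 10.26 and 12.09 against 9.43, 9.67 and 9.88, a difference of -1.63 (SE 0.44, adjusted p = 0.0775), or 3.09-fold. *Iigp1*, an IRG that coats vacuoles of parasites, had 13.63, 12.34 and 14.26 against 11.48, 11.81 and 12.16, a difference of -1.59 (SE 0.47, adjusted p = 0.0992), or 3.02-fold. *Igtp* had 12.46, 11.54 and 12.83 against 10.87, 10.93 and 11.29, a difference of -1.25 (SE 0.33, adjusted p = 0.0733). In all 3 the groups were apart and tumour-free replicate 2 was the lowest of its group.

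*Irgm1* had 13.31, 12.50 and 13.66 against 12.05, 12.09 and 12.28, a difference of -1.02 (SE 0.29, adjusted p = 0.0972). *Gbp2* had 13.12, 12.27 and 13.49 against 11.88, 11.71 and 11.89, a difference of -1.13 (SE 0.30, adjusted p = 0.0756). *Gbp7* had 13.48, 12.52 and 14.00 against 12.86, 12.68 and 12.82, a difference of -0.55 (SE 0.35, adjusted p = 0.402). Of the GBPs *Gbp2* alone did not overlap, and in *Gbp3*, *Gbp5* and *Gbp7* tumour-free replicate 2 lay below all 3 tumour samples. No GTPase passed the test of limma, 4 of 7 had an unadjusted p under 0.05, and the median over the 7 was -1.02.

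Of the other type I targets, *Isg15* had 10.64, 9.73 and 10.86 in tumour-free and 8.95, 9.26 and 9.47 in tumour samples, a difference of -1.18 (SE 0.32, adjusted p = 0.0793). *Ifit1* had 10.71, 9.99 and 11.14 against 9.15, 9.20 and 9.91, a difference of -1.19 (SE 0.35, adjusted p = 0.0962). *Oasl2* had 12.78, 12.34 and 12.97 against 11.85, 11.83 and 12.00, a difference of -0.81 (SE 0.20, adjusted p = 0.0558). All 3 were without overlap, as were *Ifit2*, *Oas1a* and *Oasl1*, while *Oas2* (-0.35), *Oas3* (-0.40), *Mx1* (-0.46) and *Mx2* (-0.85) overlapped. The median over the 11 type I targets was -0.81, with 8 at an unadjusted p under 0.05.

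The sensors *Zbp1* (-0.87, SE 0.35, adjusted p = 0.216), *Ifi204* (-0.57, SE 0.27, adjusted p = 0.286) and *Ifih1* (-0.57, SE 0.23, adjusted p = 0.219), the RNA helicase MDA5, did not pass the test, and neither did *Dhx58* (-0.36, adjusted p = 0.445). *Irf1* and *Rsad2* did not overlap between the groups and had differences of -0.51 (SE 0.20, adjusted p = 0.209) and -0.91 (SE 0.29, adjusted p = 0.124). *Stat2* had 13.04, 12.21 and 11.82 against 12.21, 12.13 and 12.33, a difference of -0.14 (SE 0.30, adjusted p = 0.816). *Socs1* had 5.33, 7.80 and 4.89 against 6.27, 6.13 and 6.82, and *Cmpk2* had 10.30, 11.33 and 9.40 against 10.42, 10.39 and 10.90. These were the only 2 members with a positive difference here, of 0.40 (adjusted p = 0.767) and 0.23 (adjusted p = 0.790), and each was highest in tumour-free replicate 2, the library in which most members were low.

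Without tumour-free replicate 2, 32 of 41 members fell in Tim4+CD206hi KCs, among them 9 of 11 type I targets, 7 of 7 GTPases and the 6 named above, and *Socs1* rose, at 7.38% of all genes lower. Without tumour-free replicate 3 the count was 7, at 2.99% of all genes lower. Without any 1 of the other 4 samples it was 0, at 0.618% to 0.865% of all genes lower, with 16 to 22 members at an unadjusted p under 0.05.

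**Figure D3:**
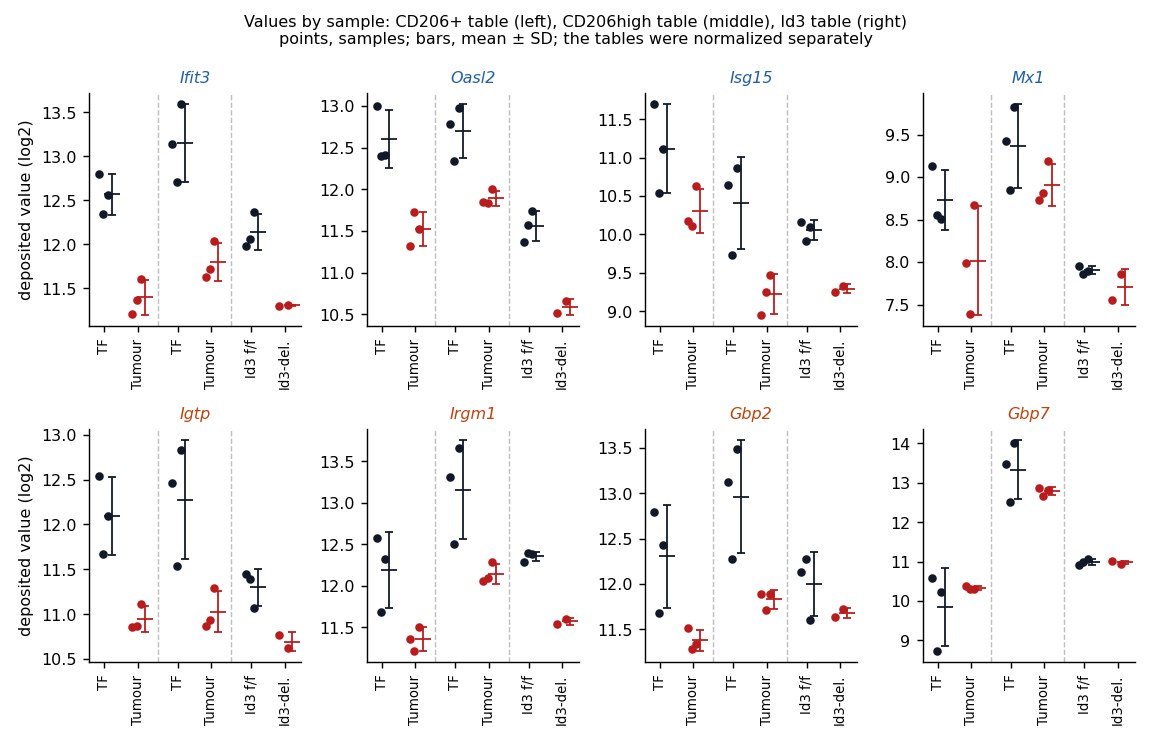
Deposited log2 values of 4 type I targets (Ifit3, Oasl2, Isg15, Mx1) and 4 GTPases (Igtp, Irgm1, Gbp2, Gbp7) in each sample (points; bars, mean ± SD), with tumour-free and tumour samples of each CD206 subset and the Id3f/f and Clec4fCreId3f/f (Id3-del.) samples. The tables were normalized separately, so heights are compared only between neighbouring groups, where Ifit3 and Igtp were apart in all 3 pairs and Gbp7 overlapped in all 3.

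After *Id3* deletion, in KCs without tumour, 22 of the 41 members fell and none rose. They comprised 7 of 11 type I targets, 3 of 7 GTPases, 4 of 6 regulators, 1 of 4 sensors and 7 of 13 other effectors. Of 12833 genes tested, 3.37% fell and 3.08% rose. Differences were negative in 37 of 41 members and 49.6% of all genes, with a median of -0.38 over members and 0.00 over all genes, and in 32 members both *Clec4f*CreId3f/f samples lay below all 3 *Id3*f/f samples, against 21.7% of all genes. The count at an unadjusted p under 0.05 was 26, against 11.7% of all genes. The sizes cannot be set against those with tumour, since the typical spread of a gene within a group, at values of 8 to 11, was 0.11 in this table and 0.28 and 0.29 in the tumour tables.

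Among type I targets, *Oasl2* had 11.37, 11.57 and 11.73 in *Id3*f/f and 10.52 and 10.65 in *Clec4f*CreId3f/f KCs and fell by 0.97 (SE 0.12, adjusted p = 0.00305), or 1.96-fold. *Ifit3* had 11.98, 12.06 and 12.37 against 11.30 and 11.31 and fell by 0.83 (SE 0.12, adjusted p = 0.00618). *Isg15* had 10.16, 9.91 and 10.10 against 9.25 and 9.33 and fell by 0.77 (SE 0.10, adjusted p = 0.00489). The gap between the groups was wider than the range within either group in all 3 genes.

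*Oas1a* had 12.23, 12.29 and 12.57 against 11.67 and 11.63 and fell by 0.71 (SE 0.11, adjusted p = 0.00885). *Oas3* had 8.83, 8.74 and 8.78 against 8.00 and 8.19 and fell by 0.69 (SE 0.10, adjusted p = 0.00618). *Ifit2* fell by 0.64 (SE 0.10, adjusted p = 0.0101) and *Oasl1* by 0.47 (SE 0.09, adjusted p = 0.0198), both without overlap. The 4 type I targets that did not pass were *Ifit1* (-0.15, 95% interval -0.37 to 0.06), *Oas2* (-0.34, -0.70 to 0.02), *Mx1* (-0.20, -0.44 to 0.04) and *Mx2* (0.01, -0.19 to 0.22). For *Mx2* the interval reached no lower than -0.19. *Oas1a* has close copies in the mouse *Oas1* cluster, and *Ifit3* a copy in *Ifit3b*, so reads may be hard to assign to a single copy.

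*Irgm1* had 12.29, 12.39 and 12.38 in *Id3*f/f and 11.54 and 11.59 in *Clec4f*CreId3f/f KCs and fell by 0.78 (SE 0.08, adjusted p = 0.00165), the smallest adjusted p of the 41 members. *Iigp1* had 11.86, 11.89 and 11.68 against 11.13 and 11.25 and fell by 0.62 (SE 0.10, adjusted p = 0.00957). *Igtp* had 11.44, 11.40 and 11.06 against 10.77 and 10.62 and fell by 0.61 (SE 0.12, adjusted p = 0.0234). These 3 IRGs were apart between the genotypes.

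The 4 GBP members did not pass the test. *Gbp2* had 12.13, 12.27 and 11.60 against 11.64 and 11.72, a difference of -0.32 (95% interval -0.70 to 0.05, adjusted p = 0.286). *Gbp3* had 11.66, 11.86 and 11.33 against 11.78 and 11.64, a difference of 0.09 (-0.22 to 0.41). *Gbp7* had 10.92, 10.99 and 11.07 against 11.01 and 10.95, a difference of -0.01 (-0.21 to 0.19). In these 3 genes the genotypes overlapped, and the intervals of *Gbp3* and *Gbp7* ended short of the fall of each IRG. *Gbp5* did not overlap, with 7.75, 7.72 and 7.86 against 7.60 and 7.62, at a difference of -0.17 (adjusted p = 0.297).

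Regulators that fell were *Usp18* by 0.61 (SE 0.10, adjusted p = 0.00956), *Irf1* by 0.53 (SE 0.10, adjusted p = 0.0167), *Socs1* by 0.48 (SE 0.10, adjusted p = 0.0237) and *Irf7* by 0.47 (SE 0.08, adjusted p = 0.0133). *Irf7* had 14.52, 14.62 and 14.66 in *Id3*f/f and 14.19 and 14.07 in *Clec4f*CreId3f/f KCs. The ISGF3 subunits *Stat2* (-0.11, adjusted p = 0.511) and *Irf9* (-0.04, adjusted p = 0.826) did not pass, with 95% intervals that for *Stat2* ran from -0.31 to 0.09. *Zbp1* had 11.83, 11.74 and 11.43 against 10.95 and 10.91 and was the 1 sensor that fell, by 0.73 (SE 0.12, adjusted p = 0.0115). *Ifi204*, *Dhx58* and *Ifih1* had differences of -0.37 (SE 0.11, adjusted p = 0.0865), -0.18 (adjusted p = 0.268) and -0.05 (adjusted p = 0.847).

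Of the other effectors, *Bst2* (tetherin, which holds budding virions at the membrane) had 13.30, 13.13 and 13.03 against 12.33 and 12.33 and fell by 0.83 (SE 0.09, adjusted p = 0.00266). *Ifi27l2a* had 12.72, 12.50 and 13.13 against 11.77 and 11.90 and fell by 0.95 (SE 0.16, adjusted p = 0.0116). *Xaf1* fell by 0.80 (SE 0.12, adjusted p = 0.00675) and *Rtp4* by 0.71 (SE 0.09, adjusted p = 0.00396). None of these 4 overlapped between the genotypes. *Ifi44* fell by 0.55 (SE 0.14, adjusted p = 0.0499), *Ifi35* by 0.38 (SE 0.09, adjusted p = 0.0409) and *Rsad2*, the antiviral enzyme viperin, by 0.37 (SE 0.09, adjusted p = 0.0424), each close to the threshold. The 6 others did not pass, and *Cmpk2* (0.09) and *Parp9* (0.11) were above 0.

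All calls after *Id3* deletion rested on both *Clec4f*CreId3f/f libraries. Without either of them limma called none of the 41 members, with 24 and 25 at an unadjusted p under 0.05 and medians of -0.41 in both cases, and without an *Id3*f/f library it called 15, 16 or 25 (without replicates 1, 2 and 3, at 0.896%, 1.54% and 7.64% of all genes lower). All 5 sex-linked genes tested differed between the genotypes, so sex and genotype cannot be told apart for the members. The KC markers went both ways, with 4 lower and 3 higher of 11, and their summed level was 20.53–20.58 against 20.39–20.41. T or NK cell markers, of the cells that make interferon-gamma, had a summed level of 11.53–11.62 in *Id3*f/f and 11.25–11.28 in *Clec4f*CreId3f/f KCs, with 1 of 11 lower. Their differences went both ways, with 5 negative and 6 positive and a median of 0.01. Monocyte markers had 13.56–13.82 and 12.74–12.85, with 1 of 5 lower and 3 negative and 2 positive differences. The part of these cells in the result was not tested.

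**Figure D4:**
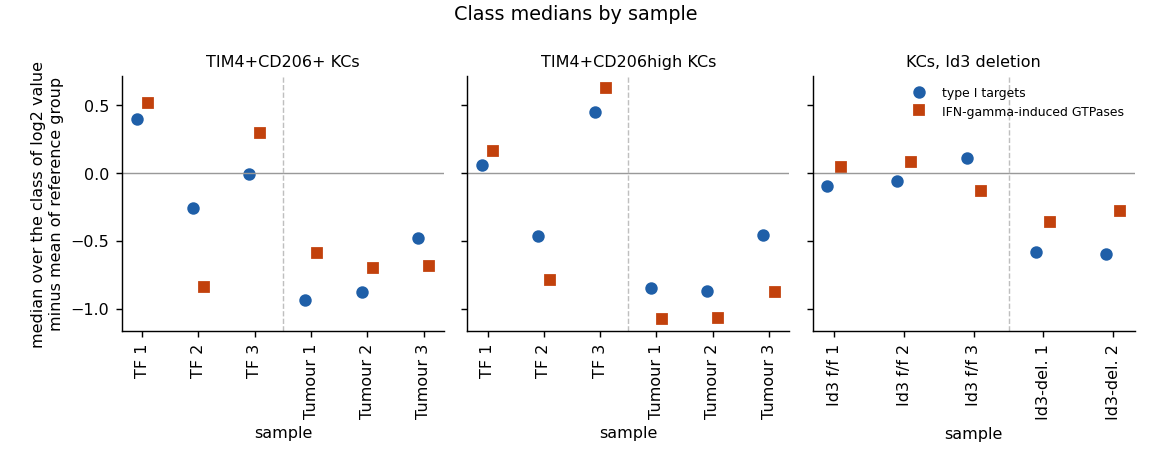
Median over the type I targets and over the interferon-gamma-induced GTPases of the log2 value minus the mean of the reference group, by sample, in the Tim4+CD206+, Tim4+CD206hi and Id3 tables. In tumour-free replicate 2 of Tim4+CD206+ KCs the GTPases lay at -0.84, below all tumour samples, and the type I targets at -0.26, above them. In that replicate of Tim4+CD206hi KCs the GTPases lay at -0.79, above all tumour samples. The type I targets lay at -0.4635 there, below tumour replicate 3 (-0.4573).

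Type I targets and gamma-induced GTPases were then set side by side. In Tim4+CD206+ KCs 4 of 11 type I targets and 1 of 7 GTPases fell, with medians of -0.81 and -0.83. In Tim4+CD206hi KCs 1 and 0 fell, with medians of -0.81 and -1.02. After *Id3* deletion 7 and 3 fell, with medians of -0.64 and -0.32. Without tumour-free replicate 2 the type I and GTPase medians were -0.94 and -1.18 in Tim4+CD206+ KCs and -0.98 and -1.48 in Tim4+CD206hi KCs. With tumour-free replicate 3 left out of Tim4+CD206+ KCs they were -0.83 and -0.55, and with tumour replicate 3 left out -0.98 and -0.65. In the other Tim4+CD206+ fits and all Tim4+CD206hi fits with a sample left out, the GTPase median was the lower. The difference between the classes was not tested in any comparison. The medians of single samples also moved together. For the GTPases they were 0.51, -0.84 and 0.29 in tumour-free and -0.59, -0.70 and -0.69 in tumour samples of the Tim4+CD206+ subset, and for the type I targets 0.40, -0.26 and -0.01 against -0.94, -0.88 and -0.48. In that subset the tumour-free GTPase values therefore straddled the tumour values and the type I values did not.

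In Tim4+CD206hi KCs the GTPase medians were 0.16, -0.79 and 0.63 against -1.08, -1.07 and -0.88, and the type I medians were 0.06, -0.46 and 0.45 against -0.85, -0.87 and -0.46. Here the GTPase values did not overlap and the type I values did, with tumour-free replicate 2 at -0.4635 and tumour replicate 3 at -0.4573. In the *Id3* table the GTPase medians were 0.04, 0.08 and -0.13 against -0.36 and -0.28, and the type I medians -0.09, -0.06 and 0.11 against -0.58 and -0.60. Tumour-free replicate 2 was the lowest tumour-free sample for both classes in both subsets, and the distance was wider for the GTPases.

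Within the GTPases, the GBP and IRG families were separated after the values had been seen, and the other genes of both families in the tables were added, to 11 GBPs (*Gbp2*, *Gbp2b*, *Gbp3* to *Gbp11*) and 7 IRGs (*Irgm1*, *Irgm2*, *Igtp*, *Iigp1*, *Ifi47*, *Tgtp1*, *Tgtp2*). With all samples and no block, no GBP passed the test of limma in any comparison, while 2, 2 and 6 of 7 IRGs fell in Tim4+CD206+, Tim4+CD206hi and *Id3*-deficient KCs. An unadjusted p under 0.05 was found for 2, 6 and 2 of the 11 GBPs and for 6, 7 and 6 of the 7 IRGs. The median differences were -0.37, -0.85 and -0.02 for the GBPs and -0.92, -1.25 and -0.62 for the IRGs. The families were not tested against each other, and the mouse *Gbp* genes stand in clusters of near-identical copies in which reads may be shared.

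Of the IRGs that are not members, *Irgm2* fell by 0.92 with tumour in Tim4+CD206+ KCs (SE 0.18, adjusted p = 0.0338). *Tgtp2* fell by 2.08 (SE 0.43, adjusted p = 0.0284) and *Tgtp1* by 1.63 (SE 0.34, adjusted p = 0.0313) in Tim4+CD206hi KCs, though these are near-identical neighbours whose reads are hard to assign. After *Id3* deletion *Tgtp2* fell by 1.20 (adjusted p = 0.00275), *Ifi47* by 0.87 (adjusted p = 0.00305) and *Tgtp1* by 0.41 (adjusted p = 0.0454). *Irgm2* was the 1 IRG that did not pass there, with a difference of -0.09. Of the GBPs, *Gbp4* (0.21, 95% interval -0.21 to 0.62), *Gbp9* (-0.02, -0.28 to 0.23) and *Gbp10* (0.03, -0.25 to 0.31) had differences near 0 after *Id3* deletion, and the lowest was that of *Gbp8*, -0.45 (adjusted p = 0.0989).

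The result for the GBPs depended on single libraries. Without tumour-free replicate 2, 3 of 11 GBPs fell in Tim4+CD206+ KCs and 11 of 11 in Tim4+CD206hi KCs, beside 6 and 7 of 7 IRGs. Without *Id3*f/f replicate 3, 3 of 11 GBPs and 6 of 7 IRGs fell after *Id3* deletion, at 7.64% of all genes lower against 3.37% with all samples. With the replicate block, 1 of 11 GBPs (*Gbp2*, adjusted p = 0.0143) and 5 of 7 IRGs fell in Tim4+CD206+ KCs. The GBP medians were -0.75, -1.48 and -0.05 in the 3 fits with a sample left out and the IRG medians -1.18, -1.62 and -0.73.

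**Figure D5:**
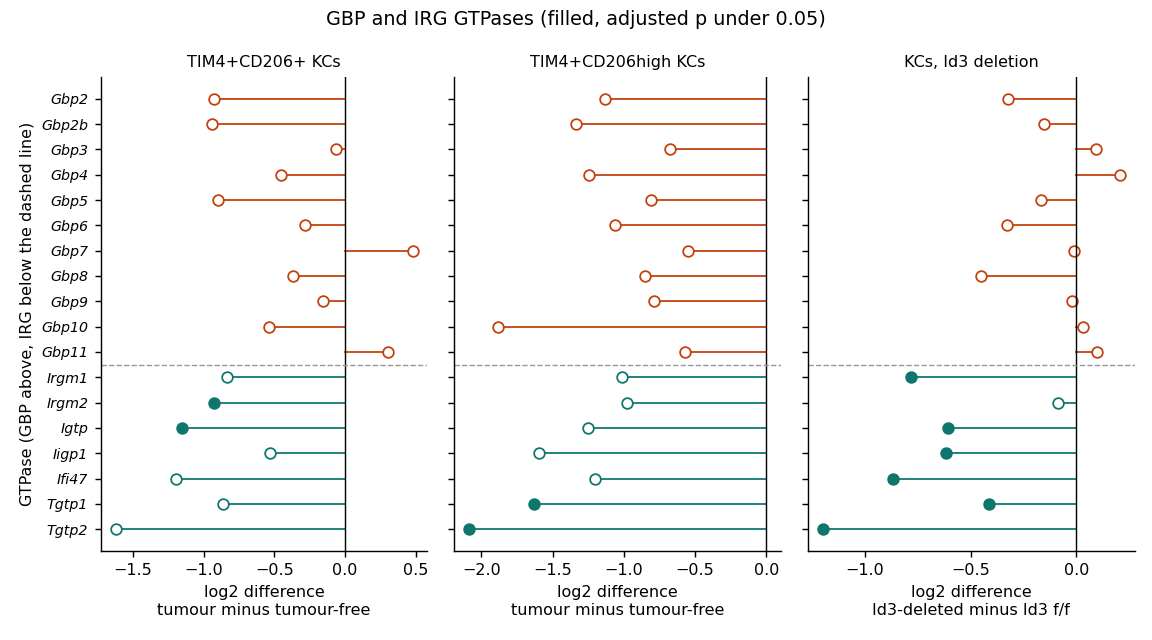
Log2 difference (dots, joined to 0 by lines) of 11 GBP (above the dashed line) and 7 IRG genes (below it) with tumour in the Tim4+CD206+ and Tim4+CD206hi KCs and with Id3 deletion, filled where the adjusted p of limma was under 0.05. Filled dots appear only among the IRGs, 2, 2 and 6 of 7, and the GBPs of the right panel lie between -0.45 and 0.21.

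The signalling chain above the members was read from lists of ligands, receptors and transducers. Of 21 interferon ligands, *Ifng* alone was tested, in the tumour tables, with means of 4.37 and 4.22 in Tim4+CD206+ KCs and 4.27 and 3.99 in Tim4+CD206hi KCs (tumour-free and tumour), and it did not pass. No reads were listed for 20 of the 21 in the *Id3* table, and for 19 and 15 in the Tim4+CD206+ and Tim4+CD206hi tables. The levels of interferon made by other cells of the liver were not measured.

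Of the 6 receptor genes, *Ifngr1*, the ligand-binding chain for interferon-gamma, had a difference of -0.65 in Tim4+CD206+ KCs (SE 0.20, adjusted p = 0.127, and 0.0499 with the replicate block). *Ifnlr1*, the chain for interferon-lambda, rose by 1.48 in Tim4+CD206hi KCs (SE 0.17, adjusted p = 0.00227), from 3.49–3.61 to 4.90–5.22, a low level at which the regularization is strong. In the same subset *Ifngr2* and *Ifnar2* had differences of 1.22 (adjusted p = 0.270) and 0.70 (adjusted p = 0.439), which without tumour-free replicate 2 were 1.94 (adjusted p = 0.00173) and 1.26 (adjusted p = 0.0247). After *Id3* deletion *Ifnar2* and *Ifngr2* had differences with 95% intervals of -0.33 to 0.05 and -0.33 to 0.02.

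*Socs3*, the feedback inhibitor of the IL-6 pathway, rose by 2.82 with tumour in Tim4+CD206hi KCs (SE 0.52, adjusted p = 0.0193), and its difference in Tim4+CD206+ KCs was 1.84 (SE 0.56, adjusted p = 0.129). *Ptpn6* (SHP-1), another negative regulator of JAK signalling, rose by 0.48 after *Id3* deletion (adjusted p = 0.0116).

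Of 15 genes that induce interferon, none passed the test of limma with tumour in either subset, and after *Id3* deletion *Tmem173* (STING) fell by 0.37 (adjusted p = 0.0353) and *Ikbke* rose by 0.45 (adjusted p = 0.0362). In Tim4+CD206+ KCs *Ddx58* (RIG-I) and *Mavs* had unadjusted p-values of 0.00913 and 0.0109 with tumour and differences of -0.63 and -0.61.

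Gamma-induced genes outside the GTPases included *Cxcl10*, a ligand of CXCR3 on T and NK cells, which fell in all 3 comparisons. It ranged from 9.53 to 10.39 in tumour-free and from 8.40 to 8.62 in tumour Tim4+CD206+ KCs, a fall of 1.55 (SE 0.26, adjusted p = 0.0158), and from 10.70 to 12.61 and from 9.36 to 10.00 in Tim4+CD206hi KCs, a fall of 2.20 (SE 0.50, adjusted p = 0.0425). After *Id3* deletion it fell by 0.97 (SE 0.11, adjusted p = 0.00266). *Cxcl9* fell by 2.65 in Tim4+CD206hi KCs (SE 0.53, adjusted p = 0.0254) and by 0.57 after *Id3* deletion (adjusted p = 0.0140), and had a difference of -1.42 in Tim4+CD206+ KCs (adjusted p = 0.116). The immunoproteasome subunits *Psmb9* and *Psmb8* fell by 0.88 (adjusted p = 0.00305) and 0.57 (adjusted p = 0.0200) after *Id3* deletion. Of the 12 genes of this list, 1 of 11 tested, 2 of 12 and 4 of 10 fell.

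Across the 3 comparisons, 17 of the 41 members fell in none, 15 in 1, 8 in 2 and 1, *Ifit3*, in all 3. Of all genes tested, 0.998%, 2.03% and 3.37% fell in the Tim4+CD206+, Tim4+CD206hi and *Id3* comparisons. How many of all genes fell in more than 1 comparison is not given here, so the recurrence has no background. The 17 were *Ifit1*, *Mx1*, *Mx2*, the 4 GBPs, *Irf9*, *Ifih1*, *Dhx58*, *Ifi204*, *Isg20*, *Cmpk2*, *Parp9*, *Parp14*, *Trim30a* and *Sp100*. The members called in 2 comparisons were *Oasl1*, *Oasl2* and *Igtp* (Tim4+CD206+ tumour and *Id3* deletion) and *Irf7*, *Usp18*, *Ifi35*, *Xaf1* and *Rtp4* (Tim4+CD206hi tumour and *Id3* deletion). *Oas2* and *Stat2* fell in Tim4+CD206+ KCs with tumour and had intervals after *Id3* deletion of -0.70 to 0.02 and -0.31 to 0.09. *Bst2* and *Ifi27l2a* fell after *Id3* deletion and had differences with tumour of -0.05 and -0.15 in Tim4+CD206+ and of -0.39 and -0.48 in Tim4+CD206hi KCs, none past the threshold. Since the comparisons were made in separate tables, a call in one and none in another does not show that the effects differed.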

How the data were processed

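RNA of sorted TIM4+ KCs, gated negative for T, B, NK cell and neutrophil markers, was amplified with SMART-Seq v4 and sequenced by the authors. Per the submitters' processing notes, the authors aligned reads with STAR 2.7.10a to mm10, counted them on genes with HTSeq and made their comparisons with DESeq2. The values the authors deposited are log2 values with the features of a regularized log transformation, made separately for 3 tables, although the files are called counts and the columns TPM. Depth per sample is therefore unknown here, and a test on a log scale was used in place of one for counts.

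Samples were grouped by their titles, and all columns were used. A gene entered the test with a value of 3.32 (log2 of 10) or more in 3 or more samples of a tumour table or 2 of the *Id3* table, with limma 3.58.1 in R 4.3.3 (2 groups of the table, mean-variance trend, Benjamini-Hochberg over all genes tested, threshold 0.05). Intervals are 95% intervals of 1 gene. The script was tested on simulated data. Promoter windows came from RefSeq (GRCm38.p6) and were searched with Python 3.11.15. The members and lists were chosen with earlier results of these data known. All members are counted, and differences with SE and adjusted p are given for each call and for the 2 largest differences per class and comparison, with other values given in part. Alternatives were no filter, a stricter filter (mean of at least 5.64), no trend, median centring, quantile normalization, a replicate block and leaving out each sample. The result of 1 gene of the signalling lists is not reported here.

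Replicate numbers of the titles were checked by the correlation of deviations from group means across genes. In Tim4+CD206+ KCs the same-numbered pairs had r = 0.35, 0.56 and 0.15, each above 0.1. Of the pairs with unlike numbers, tumour-free 1 with tumour 3 had r = 0.30 and tumour-free 3 with tumour 1 had r = 0.16. The others were negative. No source pairs tumour-free with tumour samples, so a pairing was not established and the block is an alternative only.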

Additional observations from a re-analysis of the deposited data

How the results depend on the processing

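Of the 10 counts and class medians, no median changed sign under an alternative, and a count cannot do so. In Tim4+CD206+ KCs the 6 members became 2 with no filter, 2 without the trend, 13 with the replicate block and 0 to 21 with 1 sample left out. In Tim4+CD206hi KCs the 6 became 3 with no filter, 3 with the stricter filter, 3 without the trend and 0 to 32 (higher, 0 to 1) with 1 sample left out. After *Id3* deletion the 22 ranged from 0 to 25 with 1 sample left out, where a lone *Clec4f*CreId3f/f sample was assumed to vary like the other group. The median of the GTPases after *Id3* deletion, -0.32, became -0.52 to -0.20 with 1 sample left out. The cause was not tested.

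Replicate numbers did not pair the samples of Tim4+CD206hi KCs (r = -0.05, -0.13 and -0.05) or of the *Id3* table (-0.07 and -0.10). With the replicate block, 6 members fell in Tim4+CD206hi KCs, 2 of them shared with the fit without it, at 1.44% of all genes lower. After *Id3* deletion 27 fell with the block, at 8.19% of all genes lower, the GTPase median was -0.52 and *Ifih1* reversed to 0.060. *Id3*f/f replicate 3 has no *Clec4f*CreId3f/f sample of its number, so the block takes it out of the comparison. Both differences are those of the fit without that replicate.

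Over named genes, 351 of 443 values in Tim4+CD206+, 396 of 491 in Tim4+CD206hi and 385 of 495 in *Id3* fits stayed on their side of the threshold in the same direction, and 50, 64 and 100 lost the call, 27, 26 and 7 gained it and 15, 5 and 3 reversed. None of the genes that reversed was called in the comparison in which it did so. With 1 sample left out, Tim4+CD206+ differences ranged over -0.44 to 0.11 (*Ifit1*), -0.65 to 0.12 (*Socs1*), -0.13 to 0.23 (*Ifih1*), -0.14 to 0.49 (*Ifi204*), -0.94 to 0.14 (*Cmpk2*), -0.20 to 0.11 (*Bst2*), -0.35 to 0.089 (*Ifi27l2a*), -0.59 to 0.47 (*Ifnar2*) and -0.19 to 0.95 (*Ifngr2*). In Tim4+CD206hi KCs they ranged over -0.40 to 0.21 (*Stat2*), -0.16 to 1.29 (*Socs1*), -0.24 to 0.72 (*Cmpk2*) and -0.093 to 0.24 (*Ifnar1*), and *Ifih1* after *Id3* deletion over -0.18 to 0.071. Quantile normalization took *Bst2* in Tim4+CD206+ KCs to 0.027, and median centring took *Ifnar1* in Tim4+CD206hi KCs to -0.049. Median centring and quantile normalization moved the median of all genes in Tim4+CD206hi KCs from 0.03 to -0.13 and -0.11, and quantile normalization gave 518 lower of 1182 called genes, against 295 lower and 758 higher without it.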
